A study of Mus musculus with 20 samples.

Results

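The livers compared here came from male Fancd2 mutant mice, written d2-/- in the labels, and were taken at the end of an 18-month treatment. Livers of mutants that received metformin were set against livers of mutants that did not. Of the 20 labelled samples of the series, 14 mutant libraries with counts entered the comparison. With metformin there were 6 libraries, 3 from mutants given metformin alone and 3 from mutants given metformin together with oxymetholone, called the combination below. Without metformin there were 8 libraries, 3 from untreated mutants and 5 from mutants given oxymetholone alone. Loss of Fancd2, a gene needed to repair DNA crosslinks through the Fanconi anaemia pathway, was thus shared by both sides, and the androgen oxymetholone was present in part of each side. Metformin and oxymetholone were therefore modelled as 2 additive terms, and all differences given below are the metformin term (with minus without metformin) unless another contrast is named. The sources used here give no doses, routes, ages or construction of the allele. Untreated mutant replicate 1, metformin replicate 2 and the Fancd2 transcript itself were not analysed here, so the genotype was not checked against its own RNA. The numbers of the replicates are names in the order of the sample records.

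The 14 libraries held 20.2 to 32.7 M counts each. Y-linked RNA exceeded Xist in 14 of 14, in keeping with the male label. Hepatocyte markers were abundant on both sides, with a summed level over 10 genes of 37500 to 96900 CPM (counts scaled to the same total in every library) with metformin and 50000 to 82600 CPM without. Metformin replicate 3 and combination replicate 3 stood apart, with a median correlation with the other libraries of 0.921 and 0.915, against at least 0.935 for each of the other 12. These libraries and metformin replicate 4 carried high levels of epithelial or fetal genes, described below, and results that rest on them are given with and without them. Without all 3, metformin alone is left with replicate 1 and the combination with replicates 1 and 2. The labels do not say that each library is a separate animal, so p-values measure the spread between these libraries. In RNA of whole liver, fewer cells of a type and less RNA per cell cannot be told apart.

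Metformin is a biguanide used against type 2 diabetes. It enters hepatocytes through transporters of organic cations, inhibits complex I of the respiratory chain, and lowers the energy charge of the cell. The energy sensor AMPK is then activated. AMPK phosphorylates and inhibits acetyl-CoA carboxylase, which favours fatty acid oxidation, and also restrains cholesterol synthesis, while glucose output by the liver falls. These steps act largely on proteins already made, so they need not show in the transcripts.

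No gene passed edgeR's test. Its quasi-likelihood test called 0 of 15225 genes (0%) at an adjusted p under 0.05, and the adjusted p of every gene rounded to 1.0. At an unadjusted p under 0.05 there were fewer genes than this threshold lets through by chance alone. They were 497 genes higher with metformin (3.26%) and 140 lower (0.920%). That balance rested on few libraries: it was 260 higher and 178 lower of 15284 genes without combination replicate 3, and 243 higher and 496 lower of 15662 genes without metformin replicates 3 and 4 and combination replicate 3. Voom with quality weights in limma also called 0 genes (717 at an unadjusted p under 0.05), whereas DESeq2 called 13, of which 11 were higher and 2 lower. The 13 were Prom1, Scara3, Anxa13, Epcam, Gm830, Bglap3, Igkv3-10, Rasa2, Nepro, Mmp7 and Vnn1 on the higher side and Cyp17a1 and Saa2 on the lower side. The authors' deposited table likewise held 0 genes with an adjusted p under 0.05 for metformin against untreated mutants (smallest 0.254) and 0 for the combination against oxymetholone (smallest 0.432). In these libraries the biological coefficient of variation was 0.442. Over the same libraries and genes, edgeR called 15 genes for the oxymetholone term. The levels and differences below did not pass edgeR's test for metformin over all genes, and its unadjusted p-values are given to rank them.

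Vnn1, which encodes the pantetheinase vanin 1 and is a known target of the fatty acid receptor PPAR-alpha, had the smallest p of all. With metformin its level was lowest in metformin replicate 3 at 13.9 CPM, had a median of 24.9 CPM and was highest in combination replicate 2 at 40.7 CPM. Without metformin the lowest level was 5.67 CPM, the median 10.2 CPM and the highest 19.5 CPM, in oxymetholone replicate 2. Metformin replicate 1 at 19.7 CPM and the other 4 libraries with metformin lay above all 8 without, so the sides overlapped only through metformin replicate 3, which lay below oxymetholone replicates 2 and 5. The means were 26.1 ± 9.59 and 11.1 ± 4.38 CPM (SD over 6 and 8 libraries), and the log2 difference for Vnn1 was 1.30 ± 0.26 (SE, edgeR unadjusted p = 0.000189). It was 1.32 ± 0.42 for metformin against untreated and 1.28 ± 0.36 for the combination against oxymetholone, comparisons that share no library. Leaving out any 1 library gave 1.14 to 1.43. Vnn1 was chosen by its p in these same libraries. Likeness of the 2 comparisons or of these refits is thus not independent support.

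Cyp17a1, the steroid 17-alpha-hydroxylase, led the genes that lay lower. With metformin it ranged from 9.62 CPM in metformin replicate 4 through a median of 15.3 CPM to 25.0 CPM in metformin replicate 3. Without metformin it ranged from 20.0 CPM through a median of 60.5 CPM to 102 CPM. Untreated mutants held 50.0, 71.1 and 74.8 CPM, all above every library with metformin. Oxymetholone libraries split, with 20.0, 21.6 and 24.2 CPM in replicates 1, 2 and 5 and 75.1 and 102 CPM in replicates 3 and 4, so the overlap with metformin replicate 3 came from those 3 libraries. The log2 difference of Cyp17a1 was −1.76 ± 0.39 (edgeR unadjusted p = 0.000404), with −1.87 ± 0.59 without oxymetholone and −1.68 ± 0.55 with it. Cyp17a1 was chosen in the same way as Vnn1, so this likeness is not independent support either.

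Groups that did not overlap at all were rare. Of 15225 genes, 5 (0.0328%) had all 6 libraries with metformin above all 8 without, and 0 (0%) had all 6 below. Chance labels alone would set apart about 5 genes in each direction, so this separation is not support on its own. The 5 were Rasa2, Nepro, Zfp658, Trim6 and Snx13, and the last 3 fall outside the rule for named genes and are named because of this separation. Rasa2, a GTPase-activating protein that turns Ras off, spanned 2.85 to 5.45 CPM with metformin (median 3.47) and 1.58 to 2.39 CPM without (median 1.94). Its log2 difference was 0.94 ± 0.21 (edgeR unadjusted p = 0.000489), and 0.56 when metformin replicates 3 and 4 and combination replicate 3 were left out together. Nepro, which encodes a nucleolar protein, spanned 3.16 to 5.52 CPM with metformin (median 4.22) and 1.71 to 3.10 CPM without (median 2.70), a log2 difference of 0.80 ± 0.19 (edgeR unadjusted p = 0.000815). Unlike that of Rasa2, the difference of Nepro was as large without the 3 libraries, at 0.92. Snx13, a sorting nexin, separated the sides by a small margin, 32.4 to 39.4 CPM against 17.6 to 32.3 CPM, and its log2 difference was 0.29 ± 0.15 (edgeR unadjusted p = 0.0708). Zfp658 and Trim6 averaged about 1 CPM or less on both sides (0.854 and 1.15 CPM with metformin, 0.371 and 0.384 CPM without).

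**Figure D1:**
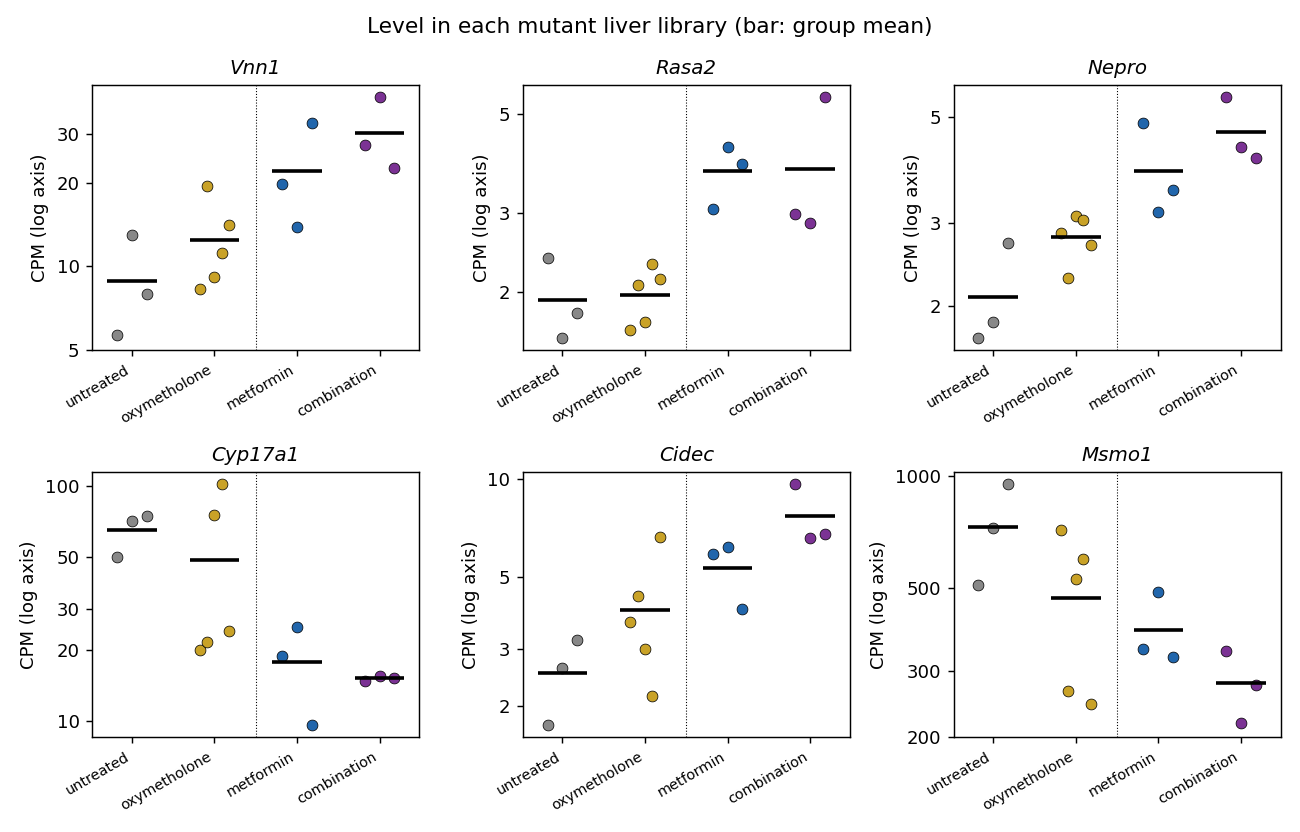
Level in CPM (log axis) of 6 genes in each of the 14 mutant liver libraries, by group, with bars at the group means and a dotted line between the 8 libraries without and the 6 with metformin. Rasa2 and Nepro are the panels without overlap, while Cyp17a1 and Msmo1 overlap through oxymetholone libraries with low levels.

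Other genes of small p lay on the same side in both comparisons, which their choice by the pooled term favours. Cidec, a lipid droplet protein that promotes storage of triglyceride, held 3.96 to 9.64 CPM with metformin (median 6.36) and 1.75 to 6.62 CPM without (median 3.10), and its log2 difference was 1.01 ± 0.25. Tdrp differed by 0.86 ± 0.22. On the lower side were Psen2, a presenilin of the gamma-secretase complex (−0.64 ± 0.18), Nab2, a corepressor of EGR transcription factors (−0.73 ± 0.22), and the purine nucleoside phosphorylase gene Pnp (−0.52 ± 0.17). Tstd3 (−0.45 ± 0.15), Syne4 (−1.52 ± 0.48) and Zkscan4 (−0.93 ± 0.29) lay lower as well. Dnai1 and the crystallin gene Crybb3 averaged 0.343 and 1.67 CPM with metformin against 1.70 and 10.3 CPM without, and their log2 differences were −2.36 ± 0.76 and −2.72 ± 0.89. Acmsd, whose product diverts tryptophan breakdown away from NAD synthesis, had unlike values: the combination lay below oxymetholone by −1.84 while metformin alone differed from untreated by −0.34 (interaction unadjusted p = 0.0181 by edgeR, adjusted p = 0.926). The remaining genes of smallest p on the higher side, Prom1, Mmp7, Bglap3, Anxa13, Epcam and Scara3, and Saa2 on the lower side, rested on a few libraries and are described with their groups.

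Genes of cholesterol synthesis lay lower with metformin throughout. All 25 measured members had a negative log2 difference, with a median of −0.63 against 0.01 over all genes tested. An unadjusted p under 0.05 was reached by 10 of the 25, beside 0.920% of all genes on that side, and 23 of the 25 lay lower in each of the 2 comparisons that share no library (medians −0.67 without oxymetholone and −0.58 with it). No member was called. Earlier results of these data had already shown this list lower with metformin, so neither median is independent support.

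Down the pathway, the difference was spread over early and late steps. Hmgcs1, which makes HMG-CoA, held 104, 443 and 268 CPM in the metformin libraries and 226, 64.4 and 265 CPM in the combination libraries, against 525, 543 and 682 CPM in untreated mutants (log2 difference −0.90 ± 0.42, edgeR unadjusted p = 0.0475). Its 5 oxymetholone libraries held 438, 144, 377, 471 and 116 CPM, so replicates 2 and 5 lay within the range with metformin. Mvd, the mevalonate diphosphate decarboxylase, differed by −0.99 ± 0.45.

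The late, sterol-modifying steps had the smallest p-values of the list. Msmo1, the methylsterol monooxygenase, ranged from 219 to 488 CPM with metformin (median 334) and from 245 to 955 CPM without (median 565), a log2 difference of −0.83 ± 0.27 (edgeR unadjusted p = 0.00814). The 3 untreated libraries of Msmo1 (511 to 955 CPM) lay above all 6 with metformin, and the overlap again came from oxymetholone replicates 2 and 5 at 266 and 245 CPM. Ebp, the sterol isomerase, differed by −0.56 ± 0.20, Sc5d, the sterol desaturase, by −0.67 ± 0.27, and Dhcr7, which completes cholesterol, by −0.79 ± 0.33. The regulator Srebf2, which encodes the transcription factor SREBP2 that drives the list, differed by −0.21 ± 0.36. It was among the 2 members that did not lie lower in both comparisons: for Srebf2, metformin minus untreated was 0.19 and combination minus oxymetholone −0.53.

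Summed over the 25 cholesterol synthesis genes, the level was 2370 to 5000 CPM with metformin (median 3160) and 2430 to 7240 CPM without (median 5460). Untreated libraries held 5230, 5610 and 7240 CPM, and 3 oxymetholone libraries 5420, 5490 and 5640 CPM, all above the 6 libraries with metformin, while oxymetholone replicates 2 and 5 held 2430 and 2500 CPM. Leaving out the 3 libraries with epithelial or fetal genes left 25 of 25 lower (median −0.88, 13 at an unadjusted p under 0.05). Leaving out untreated replicate 2 and oxymetholone replicate 4, the libraries with the highest acute-phase genes, left 24 of 25 lower (median −0.57) and 3 at an unadjusted p under 0.05. Leaving out any single library left 25 of 25 lower (medians −0.74 to −0.54), but the number at an unadjusted p under 0.05 ran from 3, without metformin replicate 1 or combination replicate 2, to 14, without oxymetholone replicate 2 or 5.

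**Figure D2:**
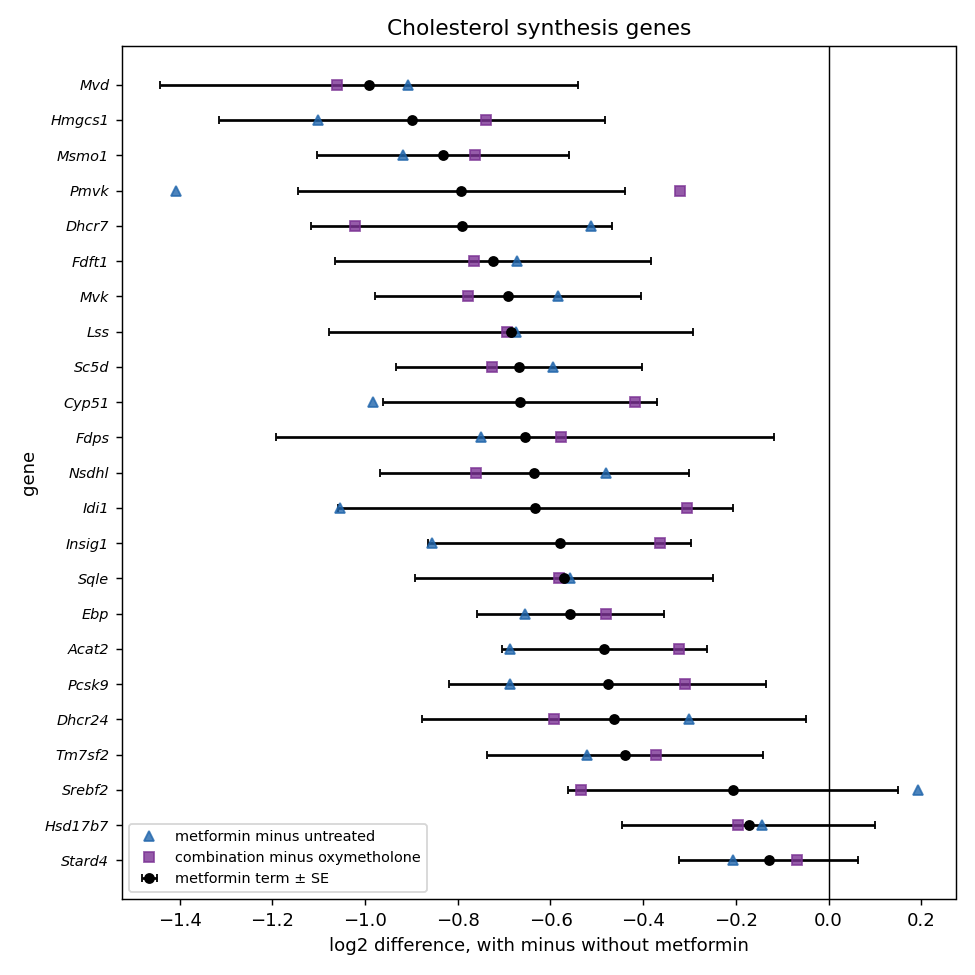
Log2 difference of 23 of the 25 cholesterol synthesis genes (x axis): the metformin term ± SE as circles, metformin minus untreated as triangles and combination minus oxymetholone as squares. All 23 circles lie below 0, and Srebf2 is the gene drawn whose triangle lies above 0.

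Genes of fatty acid oxidation and ketone body synthesis lay slightly higher. Of 30 measured, 26 had a positive log2 difference (median 0.22) and 17 were higher in both comparisons. Only 2 reached an unadjusted p under 0.05, Vnn1 and Acot3 (3.26% of all genes did on that side). Acot3, a peroxisomal acyl-CoA thioesterase, held 13.4, 0.266 and 0.880 CPM with metformin and 5.72, 60.8 and 2.14 CPM with the combination, against 0.522 to 10.7 CPM without metformin (2.16 ± 0.95). Its level with metformin thus spanned more than the difference, and the same held for Cyp4a14, an omega-hydroxylase (12.2 to 477 CPM with metformin, 9.69 to 184 CPM without, 1.11 ± 0.82). Cyp4a10 of the same family held 166, 110 and 29.1 CPM with the combination against 13.8 to 53 CPM with oxymetholone, but 173, 23.6 and 15.6 CPM with metformin against 29.5 to 100 CPM in untreated mutants (1.12 ± 0.61). Cpt1a, which admits long-chain fatty acids to mitochondria, differed by 0.38 ± 0.41. Leaving out metformin replicates 3 and 4 and combination replicate 3 raised the count to 29 of 30 and the median to 0.45. These 3 libraries were chosen after seeing the data. They held the lowest sums of this list with metformin (6740, 5560 and 3810 CPM, against 9180 to 9930 CPM in those kept). The choice thus favours higher values, and the rise is not added support. Leaving out combination replicate 2, whose Acot3 and Vnn1 were highest, left 21 of 30 higher (median 0.12).

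Fatty acid and triglyceride synthesis genes showed no common direction (9 of 24 higher, 15 lower, median −0.11). Beside Cidec, the lipid droplet gene Plin4 lay higher (1.32 ± 0.53), with 0.845, 3.99 and 0.528 CPM in metformin libraries against 0.327 to 0.393 CPM in untreated ones. The log2 difference of Plin4 was 2.29 without oxymetholone and 0.57 with it. Acss2, which activates acetate, lay lower (−0.74 ± 0.39). Fabp4, a fatty acid carrier of fat cells and capillaries, differed by 1.46 ± 0.52, but combination replicate 3 held 104 CPM and the other 13 libraries at most 22.6 CPM.

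For the metformin transporters, the energy sensor and the glucose pathway the pooled list medians lay near 0. The medians of the 2 comparisons, without and with oxymetholone, were 0.09 and 0.18 for transporters and 0.23 and −0.24 for AMPK genes. For gluconeogenesis and glycogen they were 0.11 and −0.25, and for glycolysis and insulin signalling 0.195 and −0.13. Slc47a1, which exports metformin into bile, held 61.5 ± 18.6 CPM with metformin and 60.1 ± 17.6 CPM without (SD over 6 and 8 libraries). Over the 8 measured transporters the log2 differences ran from −0.32 ± 0.26 for Slc19a2 to 0.60 ± 0.38 for Slc22a3, and 0 reached an unadjusted p under 0.05. AMPK subunits and regulators were 12 higher and 12 lower (median −0.03). Prkab2, the beta-2 subunit of AMPK, had the smallest p (2.24 to 5.64 CPM in 5 libraries with metformin and 1.69 CPM in the sixth, 1.28 to 5.0 CPM without, 0.65 ± 0.30, edgeR unadjusted p = 0.0434).

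Gluconeogenesis and glycogen genes were 8 higher and 12 lower of 20 (median −0.02), with 0 at an unadjusted p under 0.05. Pck1, the phosphoenolpyruvate carboxykinase, held 606 ± 370 CPM with metformin and 717 ± 454 CPM without, and the glucose-6-phosphatase gene G6pc 84.8 ± 48.2 and 75.6 ± 32.6 CPM. Their spread within a side exceeded the difference between sides. In glycolysis, Pfkfb3, whose product makes the activator fructose 2,6-bisphosphate, stood out with 4.05 to 14.4 CPM with metformin (median 6.14) and 1.47 to 9.0 CPM without (median 2.66). Untreated mutants held 1.47 to 1.96 CPM of Pfkfb3, below all 6, while oxymetholone replicates 3, 4 and 5 held 5.48, 9.0 and 7.30 CPM. The log2 difference was 1.12 ± 0.33 (edgeR unadjusted p = 0.0045). The glycolytic isomerase gene Tpi1 lay lower (−0.46 ± 0.20), with 301 to 399 CPM against 289 to 616 CPM.

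Complex I, the target of metformin in the respiratory chain, has subunits encoded in the nucleus and in mitochondrial DNA. Of 37 nuclear subunit genes, 36 lay lower, but by little: the median was −0.15, the range −0.28 to 0.00, and 0 reached an unadjusted p under 0.05. Ndufv3 had the smallest p of them (88.1 ± 19.8 CPM with metformin, 106 ± 28.5 CPM without, −0.28 ± 0.20, edgeR unadjusted p = 0.192). The direction was not kept across libraries, since leaving out metformin replicates 3 and 4 and combination replicate 3 left 6 of 37 lower (median 0.10), and the median was −0.33 without oxymetholone and −0.02 with it. Of 12 genes of mitochondrial DNA, 6 lay higher and 6 lower. The complex I gene mt-Nd5 had the smallest p among them, with 1664 to 2696 CPM in 5 libraries with metformin, 618 CPM in combination replicate 3 and 627 to 2723 CPM without metformin (0.53 ± 0.36). Mitochondrial genes took 1.54 to 3.89% of counts with metformin and 1.77 to 8.19% without, a mean difference within oxymetholone strata of 0.391 percentage points (exact two-sided permutation test within strata over 1120 arrangements, p = 0.775). By group means the strata differed in direction, but with oxymetholone this rested on oxymetholone replicate 3 and combination replicate 3. Metformin libraries held 3.25 to 3.89% and untreated ones 2.04 to 2.60%, without overlap, whereas combination libraries held 3.28, 3.29 and 1.54% and oxymetholone libraries 2.55, 1.86, 8.19, 1.77 and 1.98%. The mean difference was 1.01 percentage points without oxymetholone replicate 3, 0.681 without combination replicate 3, and 0.203 to 0.248 without oxymetholone replicate 2, 4 or 5 or combination replicate 1 or 2.

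Acute phase genes encode plasma proteins that hepatocytes secrete during inflammation, and all 28 measured lay lower with metformin (median −0.96), with 6 at an unadjusted p under 0.05. Most of that difference sat in libraries without metformin. Saa2, the serum amyloid A gene with the smallest p, held 20490, 5463 and 655 CPM in untreated mutants and 51120 CPM in oxymetholone replicate 4, with 134 to 1854 CPM in the other 4 oxymetholone libraries. With metformin it ranged from 66.0 to 1185 CPM (median 249), and the log2 difference was −4.87 ± 1.5 (edgeR unadjusted p = 0.00551). The sides overlapped, since 4 libraries without metformin held 134 to 655 CPM. Saa1 (−3.83 ± 1.29), the orosomucoid gene Orm2 (−2.69 ± 1.15) and the metallothionein gene Mt1 (−2.22 ± 0.97) followed. Summed over 28 genes, untreated replicate 2 held 213000 CPM and oxymetholone replicate 4 held 321000 CPM, against at most 88300 CPM in each of the other 12 libraries. Leaving out untreated replicate 2 alone gave a median of −0.56 and oxymetholone replicate 4 alone −0.43. Leaving out both left 16 of 28 lower, with a median of −0.06 and 0 at an unadjusted p under 0.05. Neutrophil genes were high in the same oxymetholone library (summed 80.2 CPM in replicate 4, at most 53.7 CPM elsewhere) and lay lower in 11 of 13 (median −0.84, and −0.20 over 12 genes without the 2 libraries), of which Ngp, a granule protein gene, had the smallest p (−2.21 ± 0.96). Whether these 2 libraries bear on other differences beyond the values given was not tested.

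**Figure D3:**
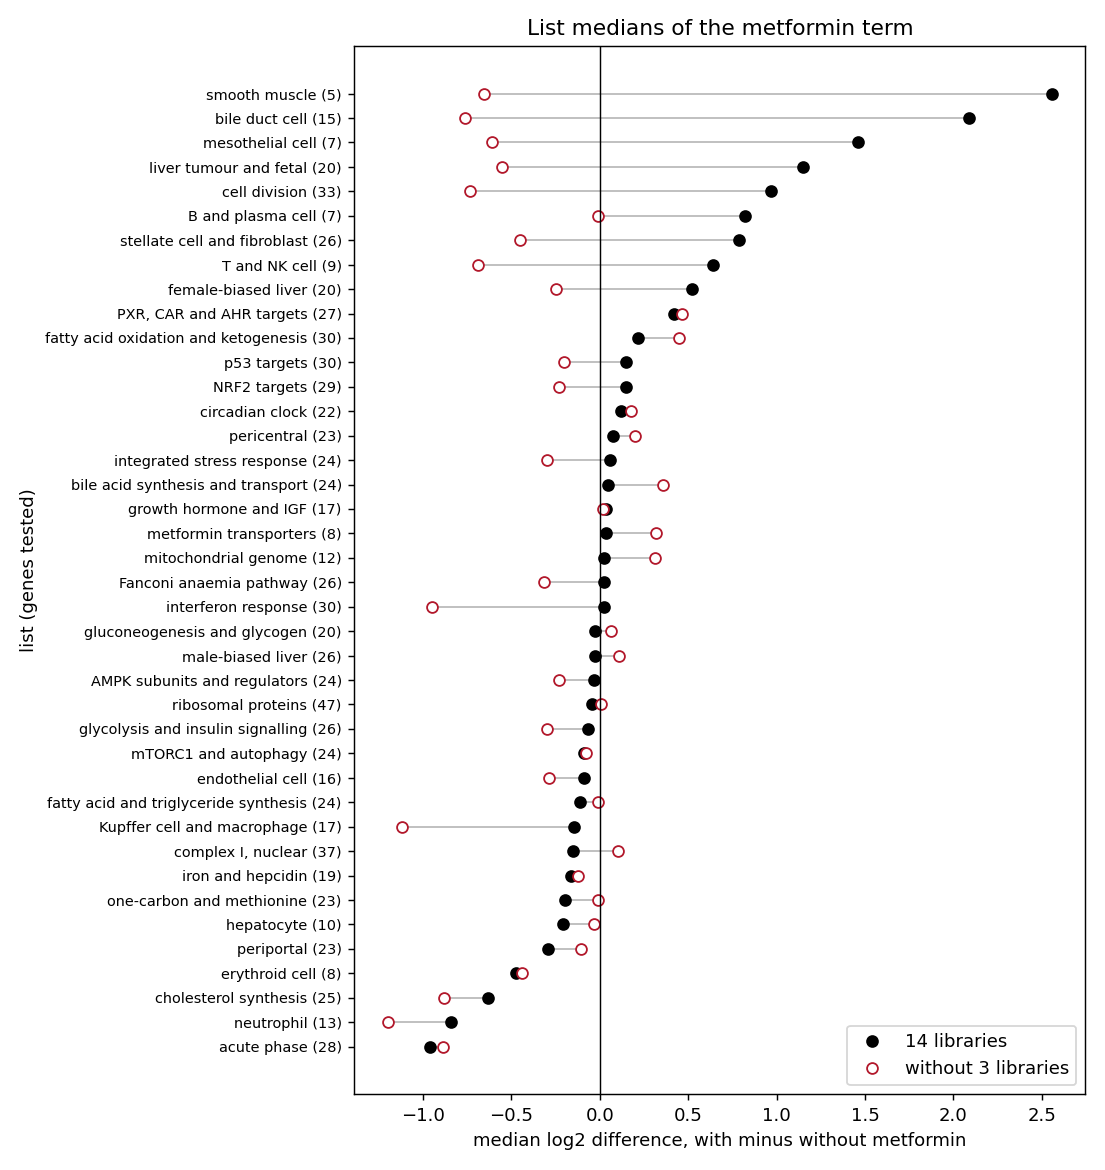
Median log2 difference with minus without metformin (x axis) of each list with at least 5 genes tested (number in brackets), in all 14 libraries as filled circles and without metformin replicates 3 and 4 and combination replicate 3 as open circles. Cholesterol synthesis, acute-phase and neutrophil genes stay below 0 and fatty acid oxidation genes above 0 in both, while the cell type and cell division lists at the top move to the other side of 0. The 3 libraries were chosen after seeing the data, for high levels of genes in some of these lists.

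Genes of smooth muscle, bile duct cells, mesothelial cells and the fetal liver had the highest list medians, and their high levels came from a few libraries. Of 15 bile duct markers 12 lay higher (median 2.09, 8 at an unadjusted p under 0.05). Epcam, an epithelial adhesion protein, held 1.21, 43.4 and 4.11 CPM with metformin and 1.09, 1.78 and 16.7 CPM with the combination, against 0.883 to 2.10 CPM without metformin (2.97 ± 0.75). The keratin gene Krt19 was at 239 CPM in metformin replicate 3 and at 13.3 CPM in combination replicate 3, while the other 12 libraries held 0.646 to 3.67 CPM (3.59 ± 1.25). Anxa13 (2.67 ± 0.67) and Tspan8 (3.46 ± 0.93) were high in the same libraries and in metformin replicate 4, with 69.3, 11.2 and 22.7 CPM of Anxa13 and 66.0, 166 and 12.7 CPM of Tspan8. The summed level of the 15 genes did not follow metformin, with 2950 CPM in untreated replicate 2 and 3080 CPM in combination replicate 3.

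Prom1 and Mmp7, a surface protein of progenitor and duct cells and the epithelial protease matrilysin, had among the smallest p-values of all genes. Prom1 held 14, 4.61 and 23.2 CPM in metformin replicates 3 and 4 and combination replicate 3 and 0.273 to 1.55 CPM in the other 11 libraries (3.54 ± 0.84). Mmp7 held 29.7, 8.54 and 97.3 CPM in those 3 and 0.106 to 1.89 CPM in the others (4.80 ± 1.15). Scara3 (2.86 ± 0.73) and Bglap3 (3.69 ± 0.92) were highest in metformin replicate 3 and combination replicate 3 too. Metformin replicate 1 and combination replicates 1 and 2 held no more of Prom1 or Mmp7 than the libraries without metformin, so the high levels were in 3 of the 6 libraries with metformin.

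Smooth muscle actin Acta2 stood at 120 CPM in metformin replicate 3, at 27.8 CPM in combination replicate 3, and at 0.547 to 2.81 CPM elsewhere (3.40 ± 1.02). The myosin light chain gene Myl9 followed it (62.3 and 9.11 CPM, at most 2.17 CPM elsewhere, 2.56 ± 0.91). Stellate cell and fibroblast markers lay higher in 23 of 26 (median 0.79), led by the collagen gene Col5a2 (2.21 ± 0.72) and Mgp (1.85 ± 0.64). Of 20 fetal and liver tumour genes 19 lay higher (median 1.15, 6 at an unadjusted p under 0.05), among them Cd24a (2.74 ± 0.97) and Akr1b7 (2.48 ± 0.88). The imprinted fetal transcript H19 held 287 CPM in metformin replicate 4, 10.2 CPM in metformin replicate 3 and at most 1.82 CPM in the other 12 (3.47 ± 1.66). Afp, alpha-fetoprotein, held 67.6 CPM in combination replicate 3, 16.7 CPM in metformin replicate 4 and at most 13.6 CPM elsewhere (1.18 ± 0.59).

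Cell division genes lay higher in 30 of 33 (median 0.97, 8 at an unadjusted p under 0.05). Their summed level was 161 CPM in metformin replicate 4 and 258 CPM in combination replicate 3, but 62.8 to 82.5 CPM in the other 4 libraries with metformin, where libraries without metformin held 55.2 to 144 CPM. Ccne1, the cyclin of entry into S phase, had the smallest p of this list and a different set of high libraries, with 5.87, 7.64 and 5.04 CPM in metformin replicate 4 and combination replicates 2 and 3 and 1.25 to 2.43 CPM in the other 11 (1.18 ± 0.35). Kif11 (1.11 ± 0.41), Anln (0.91 ± 0.35) and the proliferation marker Mki67 (1.17 ± 0.48) were highest in combination replicate 3.

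Without metformin replicates 3 and 4 and combination replicate 3 the direction of these lists turned. These 3 were chosen after seeing the data, for high levels of such genes, which favours lower values without them. High libraries without metformin stayed in, such as untreated replicate 2 with 2950 CPM of bile duct genes. The turned directions are thus not a result of their own. Bile duct cell markers then lay lower in 12 of 14 (median −0.76), stellate cell and fibroblast markers in 25 of 26 (−0.45), liver tumour and fetal genes in 15 of 20 (−0.55) and cell division genes in 28 of 33 (−0.73). With only metformin replicate 3 and combination replicate 3 left out, the medians were −0.25 for bile duct, −0.01 for stellate and fibroblast, 0.29 for fetal and tumour and 0.23 for cell division genes. Leaving out combination replicate 3 alone lowered the medians to 0.34 for bile duct, 0.45 for stellate and fibroblast, 0.56 for fetal and tumour and 0.25 for cell division genes. Krt19 (−1.09), Acta2 (−0.66), Mmp7 (−0.86) and Prom1 (−0.30) changed sign when the 3 were left out. Whether tissue sampled, a lesion or another property of these livers goes with these genes was not tested.

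**Figure D4:**
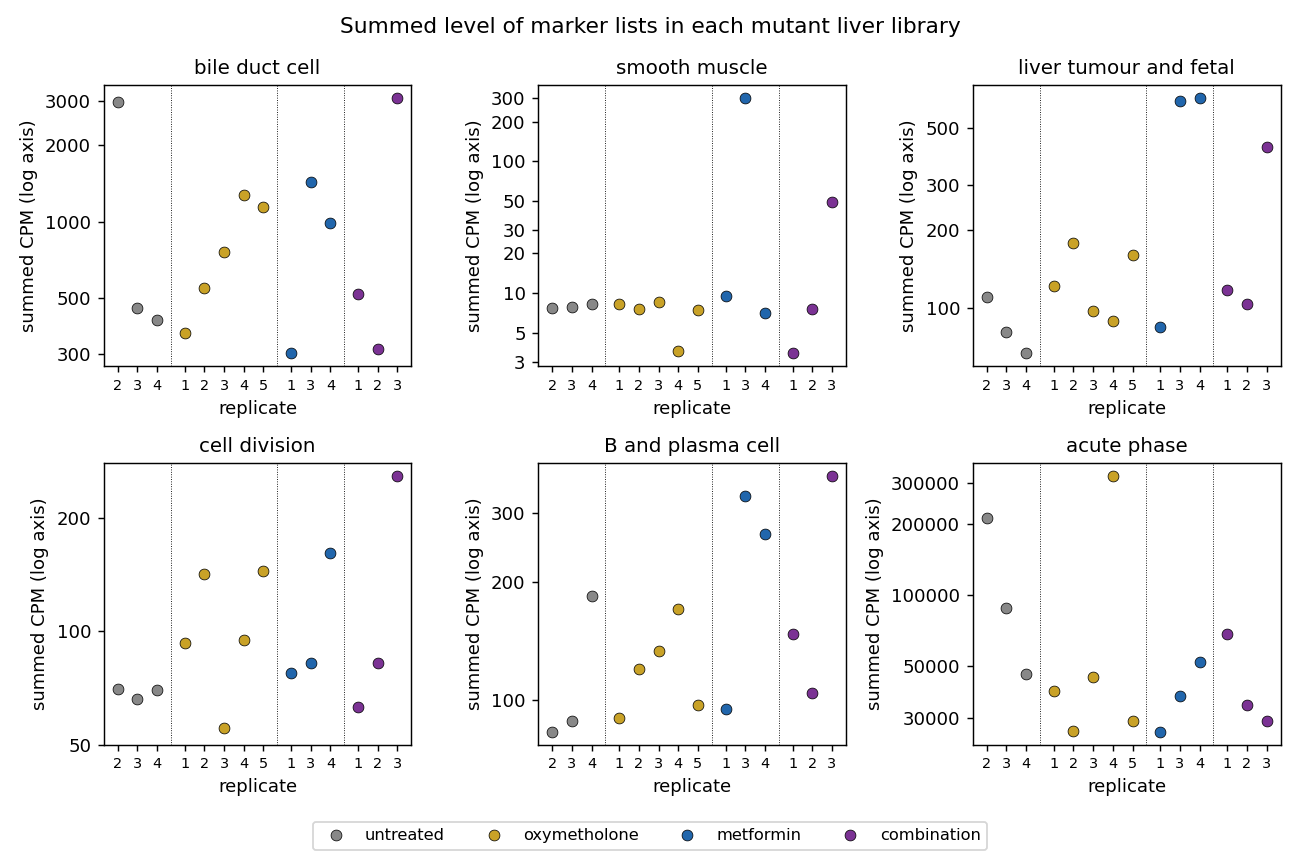
Summed CPM (log axis) of 6 marker lists in each of the 14 mutant liver libraries, by group and replicate number. Smooth muscle genes are high in metformin replicate 3 and combination replicate 3, fetal and tumour and B and plasma cell genes in these and metformin replicate 4, and acute-phase genes in untreated replicate 2 and oxymetholone replicate 4.

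Immune markers divided. B and plasma cell genes lay higher in 7 of 7 (median 0.82), with a summed level of 332, 265 and 373 CPM in the 3 libraries above, 94.8 to 147 CPM in the other 3 with metformin and 82.9 to 184 CPM without. The B cell surface gene Ms4a1 (CD20) differed by 1.83 ± 0.59 and Jchain, the joining chain of secreted antibody, by 0.98 ± 0.39, and without the 3 libraries the median of the list was −0.01. T and NK cell genes lay higher in 8 of 9 (median 0.64, 0 at an unadjusted p under 0.05), but their summed level was 2.70 to 36.1 CPM with metformin and 4.31 to 61.3 CPM without, and the median of T and NK cell genes was 0.02 without combination replicate 3. Kupffer cell and macrophage genes were 5 higher and 12 lower of 17 (median −0.15). Vsig4, a complement receptor of resident Kupffer cells, had the smallest p of that list. It held 4.33, 7.45 and 14.1 CPM with metformin and 4.67, 3.98 and 22.2 CPM with the combination, against 12.2 to 19.4 CPM in untreated and 11.2 to 28.9 CPM in oxymetholone libraries (−0.90 ± 0.40, edgeR unadjusted p = 0.0386). The 2 highest Vsig4 values with metformin belonged to metformin replicate 4 and combination replicate 3. Without the 3 libraries the difference of Vsig4 was −2.09 and all 17 genes of the list lay lower (median −1.12). So did all 30 interferon response genes (median −0.95), which had been 16 higher and 14 lower in all libraries. The 3 were chosen after seeing the data, which favours lower values here. Metformin replicate 4 and combination replicate 3 held the highest sums with metformin, 1300 and 2070 CPM of macrophage and 1230 and 1960 CPM of interferon genes. High libraries without metformin stayed in, such as untreated replicate 2 (2040 CPM of macrophage genes) and oxymetholone replicate 5 (1860 CPM of interferon genes). Endothelial markers were 5 higher and 11 lower of 16, and the lymphatic and sinusoidal gene Lyve1 (2.04 ± 0.80) rested on combination replicate 3 with 31.0 CPM, against at most 4.16 CPM elsewhere.

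Zonation lists differed weakly. Periportal genes lay lower in 17 of 23 (median −0.29), with Cyp17a1, the serine dehydratase-like gene Sdsl (−0.82 ± 0.36) and Nags, which starts the urea cycle (−0.51 ± 0.23), at an unadjusted p under 0.05. Sdsl was carried by untreated replicate 2 at 75.6 CPM and oxymetholone replicate 4 at 44.5 CPM, and the other 12 libraries held 12.9 to 23.4 CPM. Pericentral genes were 14 higher and 9 lower (median 0.07), and the Wnt feedback gene Nkd1 differed by 0.81 ± 0.34.

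The integrated stress response, which follows mitochondrial stress, had 13 genes higher and 11 lower (median 0.06). Asns, asparagine synthetase, lay lower (6.44 to 53.8 CPM with metformin, 13.8 to 114 CPM without, −1.09 ± 0.48), and Phgdh, which opens serine synthesis, lay higher (1.28 ± 0.41) with 11 CPM in combination replicate 3 and at most 3.04 CPM elsewhere. Genes of one-carbon and methionine metabolism lay lower in 17 of 23 (median −0.20, 0 at an unadjusted p under 0.05). In bile acid transport, Abcb4, the phospholipid flippase of the canalicular membrane, lay higher (200 ± 70.6 CPM with metformin, 141 ± 28.3 CPM without, 0.57 ± 0.21, edgeR unadjusted p = 0.0159). Among iron genes, 14 of 19 lay lower (median −0.16), and Hjv, a co-receptor of bone morphogenetic proteins, differed by −0.56 ± 0.23. Nampt, which recycles nicotinamide to NAD, lay higher (118 ± 51.1 and 73.8 ± 33.3 CPM, 0.71 ± 0.31). Of the 26 measured Fanconi anaemia genes 16 lay higher and 10 lower (median 0.02), and Faap20 had the smallest p (−0.58 ± 0.27). Targets of the xenobiotic receptors PXR, CAR and AHR lay higher in 23 of 27 (median 0.42) with 0 at an unadjusted p under 0.05, and the medians of the 2 comparisons were 0.00 without oxymetholone and 0.62 with it.

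Pooling assumes that metformin acts alike with and without oxymetholone. The test of that interaction called 0 of 15225 genes by edgeR (285 at an unadjusted p under 0.05), and by DESeq2 it called 3, Selenbp2, Slc22a26 and an unnamed gene. The authors' deposited table held 0 genes with an adjusted p under 0.05 for its own interaction contrast. Across the 15225 genes the log2 differences of the 2 comparisons, which share no library, correlated with r = 0.187, and 44.4% had the same sign. Without metformin replicate 3 and combination replicate 3, r was −0.06. Without metformin replicate 4 as well, r was 0.400, but metformin replicate 1 then stood alone for metformin against untreated. These correlations are over genes, which are not independent, and describe these libraries only. An unadjusted p under 0.05 in both comparisons was reached by 35 genes, of which 27 had the same sign.

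In Selenbp2, a gene of the selenium-binding protein family, the comparisons had opposite signs. It held 8.53, 13.1 and 5.61 CPM in untreated mutants and 36.4, 285 and 89.2 CPM with metformin, without overlap (log2 difference 3.92). With oxymetholone it held 121, 85.5, 469, 16.4 and 71.1 CPM, and with the combination 15.0, 37.6 and 13.5 CPM (−2.79). The interaction of Selenbp2 had a DESeq2 adjusted p of 0.000334 and an edgeR adjusted p of 0.926. Slc22a26, an organic anion transporter gene, had the mirror image, with 5.25, 4.36 and 14.1 CPM in untreated mutants, 0.845, 0.432 and 0.675 CPM with metformin, 0.040 to 1.05 CPM with oxymetholone and 1.14, 0.815 and 4.97 CPM with the combination (DESeq2 adjusted p = 0.000933, edgeR adjusted p = 0.926). Both genes were chosen after these values were seen. Other genes of sex-dependent liver expression were mixed. Male-biased genes were 12 higher and 14 lower of 26, with medians of 0.54 without oxymetholone and −0.53 with it. Female-biased genes were 16 higher and 4 lower of 20, with medians of −0.29 and 1.06, but without combination replicate 3 they were 8 higher and 12 lower (pooled median −0.19). Cyp4a12b, a male-biased fatty acid hydroxylase, had the smallest p of the male-biased list, with 8.66, 55.3 and 92.2 CPM with metformin, 85.9, 37.7 and 1.88 CPM with the combination and 0.624 to 19.5 CPM without metformin (2.42 ± 0.77). Fmo2 of the female-biased list differed by 1.40 ± 0.52. The Cyp4a12 and Cyp2c, Cyp3a and Mup families hold near-identical genes, so reads may have been split between them.

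**Figure D5:**
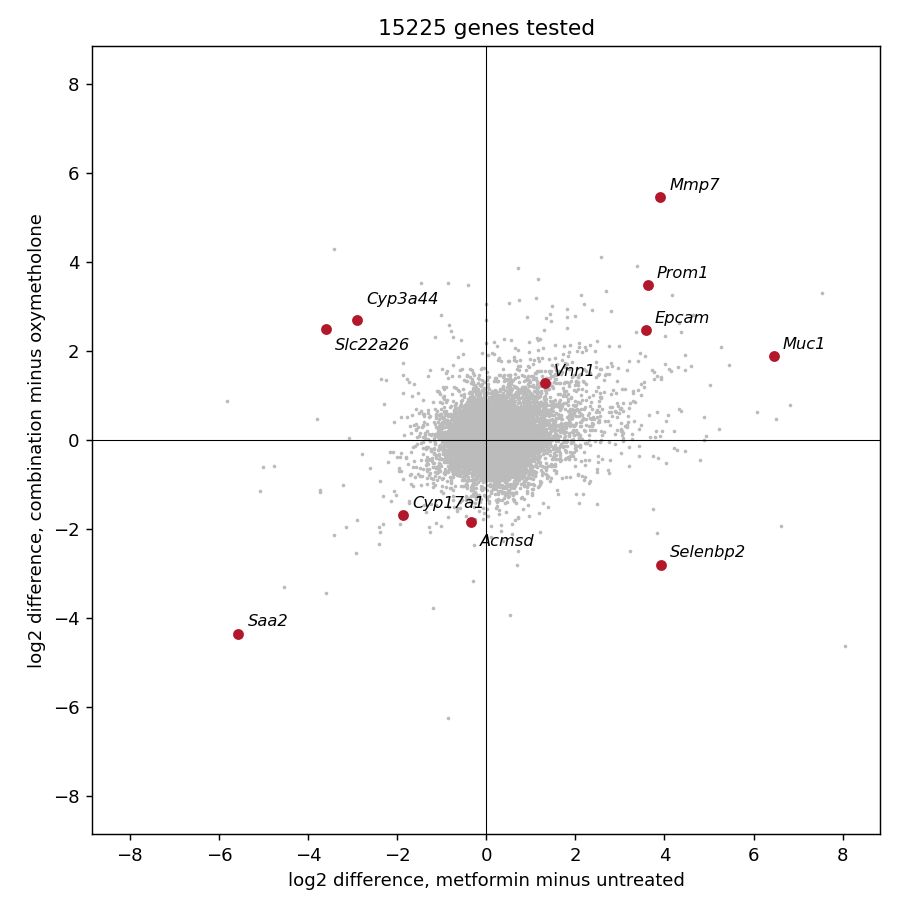
Log2 difference of metformin minus untreated (x axis) against combination minus oxymetholone (y axis) for the 15225 genes tested, with 11 genes named. Vnn1 and Cyp17a1 lie near the diagonal, Prom1, Mmp7, Epcam and Muc1 are high in both, and Selenbp2, Slc22a26 and Cyp3a44 lie in opposite corners.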

How the data were processed

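RNA of whole liver was sequenced, and 14 Fancd2 mutant libraries of 18 with counts were used. The authors deposited 1 table of 16115 genes. Per the file headers its raw columns hold counts per gene, whole numbers without normalization. Further deposited columns hold a CPM signal, scaled by TMM factors, and log2 residuals whose method is not given in the sources used here, and the authors' log2 fold changes and adjusted p-values of their own comparisons. Per the submitters' processing notes, reads were placed on GRCm39. The sources used here give no aligner, counter, annotation or strand setting. Genes with low counts had been removed before deposit, since the third highest value of every gene is at least 0.401 CPM.

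Counts were fitted in edgeR 4.0.16 (R 4.3.3): filterByExpr (890 genes removed, 15225 tested), TMM factors of 0.799 to 1.30, robust quasi-likelihood fit with metformin and oxymetholone as additive terms (11 residual degrees of freedom), Benjamini-Hochberg adjustment over all genes tested, threshold 0.05. The 2 comparisons within oxymetholone strata and the interaction came from a fit with 1 coefficient per group on the same genes. Levels are CPM on the TMM scale, and standard errors come from the F statistic. Between replicates, counts varied by more than sampling noise (chi-square divided by its degrees of freedom at least 70.3 in every pair). Depth was 20.2 to 32.7 M counts. The fit was tested on simulated data. Named genes are the 12 of smallest p in each direction with a mean of at least 1 CPM, the 3 of smallest p in each list and the metformin transporters. Genes outside that rule (Zfp658, Trim6, Snx13, Hmgcs1, Mvd, Dhcr7, Srebf2, Cyp4a14, Cpt1a, Mt1, H19, Afp, Mki67, Pck1, G6pc, Muc1, Cyp3a44, Gm830, Igkv3-10, Selenbp2 and Slc22a26) were chosen after their values were seen, and a few genes that the rule names are not reported here. The comparison and all gene lists (880 of 931 entries matched the table) were chosen with earlier results of these data known, so lists are described by counts and medians without tests. Alternatives were DESeq2 1.42.0, limma 3.58.1 (voom), DESeq2's size factors, other filters, other designs, wild-type libraries in the fit and leaving out libraries. Leaving out metformin replicates 3 and 4 with combination replicate 3, or untreated replicate 2 with oxymetholone replicate 4, and the fit on residuals were chosen after seeing the data.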

Additional observations from a re-analysis of the deposited data

Results flagged for a closer look

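In 7 of 160 groups of libraries examined (80 measures on each side) 1 library lay far from the rest. This was measured as its gap to the nearest other library divided by the range of its side, on log2 CPM for genes. Chance alone sets apart about 1 in 20 such groups. With metformin, combination replicate 3 was set apart by its high Phgdh (11 CPM, gap 0.725 of the range) and Anln (6.02 CPM, 0.699) and by its low mt-Nd5 (618 CPM, 0.673) and mitochondrial share of counts (0.727). Without metformin, oxymetholone replicate 3 had the highest mitochondrial share (8.19%, 0.871) and the lowest Snx13 (17.6 CPM, 0.579). The lowest Cyp4a12b without metformin was in untreated replicate 4 (0.624 CPM, gap 0.540 of the range).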

How the results depend on the processing

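EdgeR called 0 genes with other size factors, filters and designs, and without each library in turn (0 to 0). DESeq2 called 13 and limma on the deposited residuals 22 (among them Vnn1, Rasa2, Nepro, Tdrp, Pfkfb3 and Vsig4), and the cause was not tested. DESeq2 called 3 genes for the interaction, against 0 by edgeR. No paired analysis was possible because the labels carry no replicate numbers. Lists with a median above 0 numbered 23, 19 to 25 without 1 library, and 13 without metformin replicates 3 and 4 and combination replicate 3. Of the 24 genes of smallest p, 22 kept their sign without these 3 libraries, and 24 of 24 did under each other setting run. These genes were chosen by p in the same libraries, which favours kept signs, so the counts are not independent support. Signs turned without the 3 libraries for Prom1 (−0.30), Mmp7 (−0.86), Cd24a (−0.61), Akr1b7 (−0.73), H19 (−0.20), Afp (−0.54), Tspan8 (−0.77), Krt19 (−1.09), Col5a2 (−0.96), Mgp (−0.57), Acta2 (−0.66), Myl9 (−0.086), Jchain (−0.012), Mki67 (−0.28), Lyve1 (−0.23) and Fabp4 (−0.21). The 3 were chosen after seeing the data, for high levels of epithelial or fetal genes, which favours such turns. Other causes of turned signs, here and below, were not tested. Without metformin replicate 3 and combination replicate 3, Cd24a (−0.034), Krt19 (−0.84), Acta2 (−0.55), Myl9 (−0.23) and Lyve1 (−0.083) turned. On the residuals Orm2 (0.031), Cd24a (−0.030), Afp (−0.047), Tspan8 (−0.26), Krt19 (−1.21), Col5a2 (−0.15), Acta2 (−0.90), Myl9 (−0.65) and Ngp (0.84) turned, and under voom Krt19 (−0.034). The mitochondrial share difference ran from 0.203 to 1.01 percentage points without 1 library.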
